A study of Mus musculus with 24 samples.

Results

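The strongest signals beside that of miR-122-5p on miRNA arrays of zonated mouse hepatocytes came from 4 miRNAs of late registration: mmu-miR-6366, mmu-miR-3963, mmu-miR-5100 and mmu-miR-3968. They were chosen by name as the brightest high-numbered miRNAs, 4 of 1881 on the array, so their brightness is a description and no result. Liver cells of 3 male C57BL/6J mice aged 3 months, untreated and fed freely in a reversed light cycle, were freed of dead cells and of cells carrying CD45 or CD31. Viable tetraploid hepatocytes were then sorted by CD73, which marks the central vein side, and E-cadherin, which marks the portal side, into 8 populations of 50000 cells, from zone 1 (most pericentral) to zone 8 (most periportal). Total RNA of each population went on 1 Cy3-labelled array, giving 24 arrays with 3 per zone. In a sorted population, fewer cells holding a miRNA and less of it per cell cannot be told apart, and only tetraploid cells were sampled.

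A miRNA is cut from a hairpin precursor to a mature strand of about the length of the sequences printed here, is loaded into an Argonaute protein and lowers the output of mRNAs whose 3′ UTRs pair with its seed. miRNA numbers follow the order of registration, so a high number marks a late entry, found mostly by deep sequencing and usually little studied. The hepatocyte's best-known miRNA is miR-122, which is needed for normal cholesterol and lipid handling. No function is given here for the 4 high-numbered miRNAs.

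The mature sequences, taken from RefSeq on GRCm38.p6 by miRNA name (4 of 4 matched), are shown because their likeness is set against their signals further on. Capitals mark the seed, bases 2 to 8 from the 5′ end.
mmu-miR-6366: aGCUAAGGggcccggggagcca
mmu-miR-3963: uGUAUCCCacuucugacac
mmu-miR-5100: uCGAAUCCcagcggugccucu
mmu-miR-3968: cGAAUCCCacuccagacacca
The mature strands lie at chr16:18165093-18165114 (minus strand) for miR-6366, chr3:151023839-151023857 (minus strand) for miR-3963, chr11:60728698-60728718 (plus strand) for miR-5100 and chr11:115447969-115447989 (minus strand) for miR-3968. In the RefSeq gene table the hairpin of miR-5100 lies within Mief2, a gene for a mitochondrial fission factor, and that of miR-3968 within Trim80. The hairpins of miR-6366 and miR-3963 overlap no other gene of the table. Whether the hosts' exons or introns hold them was not examined.

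The 4 seeds are all different, and no other mature mouse miRNA of the table has any of them. The strands of miR-3963, miR-5100 and miR-3968 share the run AUCCCA, shown here in capitals.
mmu-miR-3963: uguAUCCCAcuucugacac
mmu-miR-5100: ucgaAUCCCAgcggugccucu
mmu-miR-3968: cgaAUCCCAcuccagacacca
The run starts at base 4, 5 and 4 of these strands. miR-5100 and miR-3968 share the longer run CGAAUCCCA, and miR-3963 and miR-3968 share AUCCCACU, with 15 equal bases among the 19 of their best ungapped overlap. miR-6366 shares no run longer than 3 bases with any of the others. It is also the most G- and C-rich, at 72.7%, against 61.9% for miR-5100, 57.1% for miR-3968 and 47.4% for miR-3963. The median over the 286 tested miRNAs with a sequence was 55.8%, and 19 of them were at or above miR-6366.

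The AUCCCA run, searched on the strand of the mature RNA, was present in 7 of 1679 mature mouse sequences, or 0.417%. All 7 were on the array. The 3 miRNAs described here were detected on all 24 arrays, and the other 4 (miR-191-5p, miR-7656-3p, miR-7679-3p and miR-6963-3p) on none. In those 4 the run starts at base 8, 13, 5 and 15. A shared run is a description and not a binding site.

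Signals are the deposited intensity of all probes of a miRNA, on a linear scale. The signal per molecule differs between probes, so neither signals nor shares rank the amounts of different miRNAs. The 4 miRNAs were detected on 24 of 24 arrays. miR-6366 had a signal of 13894 to 51121 (median 32146), miR-3963 of 12523 to 39460 (median 25931), miR-5100 of 2311 to 6529 (median 4421) and miR-3968 of 1640 to 7305 (median 4237). miR-6366 was the brightest miRNA on every array, miR-3963 ranked 2 or 3, and miR-5100 and miR-3968 ranked 4 or 5.

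Together they held 68.2% ± 7.27 of an array's summed miRNA signal (SD over 24 arrays, range 49.7% to 78.6%). miR-6366 held 32.8%, miR-3963 26.6%, miR-5100 4.57% and miR-3968 4.25% on average, and miR-122-5p 12.9%. A wide gap followed: miR-3968, the dimmest of the chosen, had more than the shares of miR-192-5p (1.25%), miR-22-3p (1.24%) and miR-21a-5p (1.17%), the next in line. The other 932 miRNAs on the array numbered 3000 or above held 2.82% ± 0.677 together.

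The error that the files give for each signal was small and steady. It was 7.65% to 7.74% of the signal for miR-6366, 7.68% to 7.85% for miR-3963, 8.91% to 8.99% for miR-5100 and 9.37% to 9.50% for miR-3968. The median over all 7103 detected values was 11.2%. On the log2 scale the median error was 0.11 for miR-6366 and 0.13 for miR-3968. The median SD between the 3 mice of a zone, after scaling, was 0.28 and 0.57 for these miRNAs, 0.41 for miR-3963 and 0.38 for miR-5100. The error covers 1 array alone, and the SD also holds the differences between animals and slides.

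**Figure D1:**
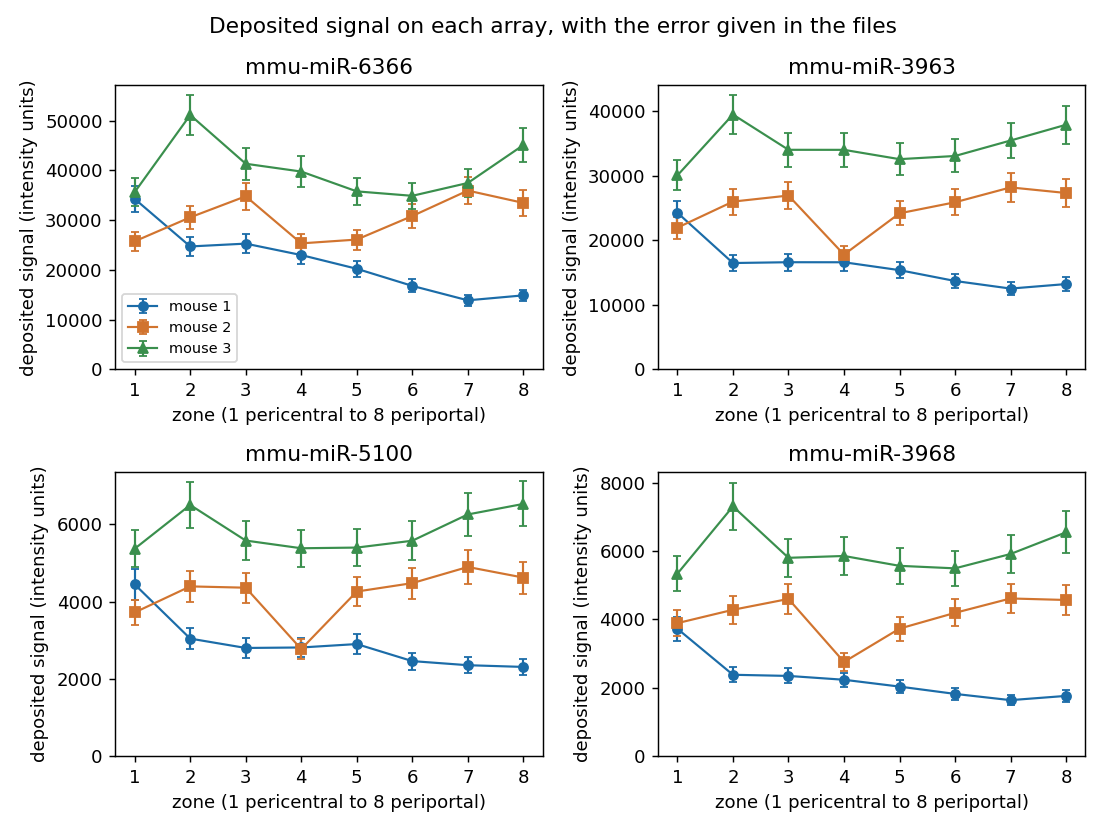
Deposited signal (intensity units, linear axis from 0) of miR-6366, miR-3963, miR-5100 and miR-3968 against zone, with 1 line per mouse and bars for the error given in the files. In all 4 panels the arrays of mouse 3 lie above every array of mouse 1, while the arrays of mouse 2 overlap those of mouse 1.

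Signals differed widely between the mice. The signal of miR-3963 was 12523 to 24257 in mouse 1 (median 15926), 17774 to 28180 in mouse 2 (median 25931) and 30042 to 39460 in mouse 3 (median 33997). The signal of miR-6366 was 13894 to 34268 in mouse 1, 25335 to 35940 in mouse 2 and 34887 to 51121 in mouse 3. For all 4 miRNAs the lowest array of mouse 3 was above the highest of mouse 1, while mouse 2 overlapped mouse 1. The summed signal of an array moved with this: it was 57935 to 94526 in mouse 1, 66629 to 106533 in mouse 2 and 101436 to 138301 in mouse 3.

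Part of the difference remained in the shares, which cancel the summed signal. miR-3968 held 2.72% to 3.94% in mouse 1, 4.14% to 5.53% in mouse 2 and 4.73% to 5.32% in mouse 3, so that no array of mouse 1 reached any of the other mice. miR-3963 held 20.4% to 25.7% in mouse 1, 26.0% to 31.2% in mouse 2 and 27.4% to 30.0% in mouse 3, again with mouse 1 below both. The shares of miR-6366 overlapped among all 3 mice. Each mouse is a single animal whose 8 arrays shared a slide of their own, so animal and slide cannot be told apart and no test was made.

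The shares of miR-6366 along the axis were 36.3%, 37.5%, 36.0%, 32.4%, 30.8%, 26.8%, 23.98% and 23.0% in zones 1 to 8 of mouse 1. In mouse 2 they were 36.6%, 33.5%, 35.0%, 38.0%, 32.3%, 31.0%, 33.7% and 32.0%, and in mouse 3 they were 35.1%, 37.2%, 35.5%, 35.1%, 30.9%, 30.0%, 31.3% and 32.6%. In mouse 1 and mouse 3 every array of zones 5 to 8 was below every array of zones 1 to 4, and in mouse 2 zone 7 was above zone 2. Each slide carried zones 1 to 4 on one row of arrays and zones 5 to 8 on the other, so this difference cannot be told apart from slide row.

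For miR-3963 the shares were 25.7%, 25.0%, 23.7%, 23.4%, 23.4%, 21.8%, 21.6% and 20.4% in zones 1 to 8 of mouse 1. They were 31.2%, 28.5%, 27.1%, 26.7%, 29.9%, 26.0%, 26.5% and 26.1% in mouse 2 and 29.6%, 28.7%, 29.2%, 30.0%, 28.1%, 28.5%, 29.6% and 27.4% in mouse 3. In mouse 1 the values were lower towards zone 8, and in mouse 3 they lay close together with zone 8 the lowest.

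For miR-5100 the shares were 4.70%, 4.61%, 3.99%, 3.97%, 4.43%, 3.92%, 4.07% and 3.57% in mouse 1. They were 5.28%, 4.82%, 4.39%, 4.16%, 5.27%, 4.51%, 4.60% and 4.42% in mouse 2 and 5.29%, 4.74%, 4.79%, 4.75%, 4.67%, 4.80%, 5.23% and 4.72% in mouse 3. Its lowest zone differed among the mice, being zone 8 in mouse 1, zone 4 in mouse 2 and zone 5 in mouse 3.

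For miR-3968 the shares were 3.94%, 3.61%, 3.35%, 3.15%, 3.10%, 2.91%, 2.83% and 2.72% in mouse 1. They were 5.53%, 4.69%, 4.63%, 4.14%, 4.62%, 4.22%, 4.33% and 4.36% in mouse 2 and 5.26%, 5.32%, 4.98%, 5.16%, 4.81%, 4.73%, 4.95% and 4.73% in mouse 3. Every step along mouse 1 was downward, and in mouse 2 zone 1 stood well above the rest.

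**Figure D2:**
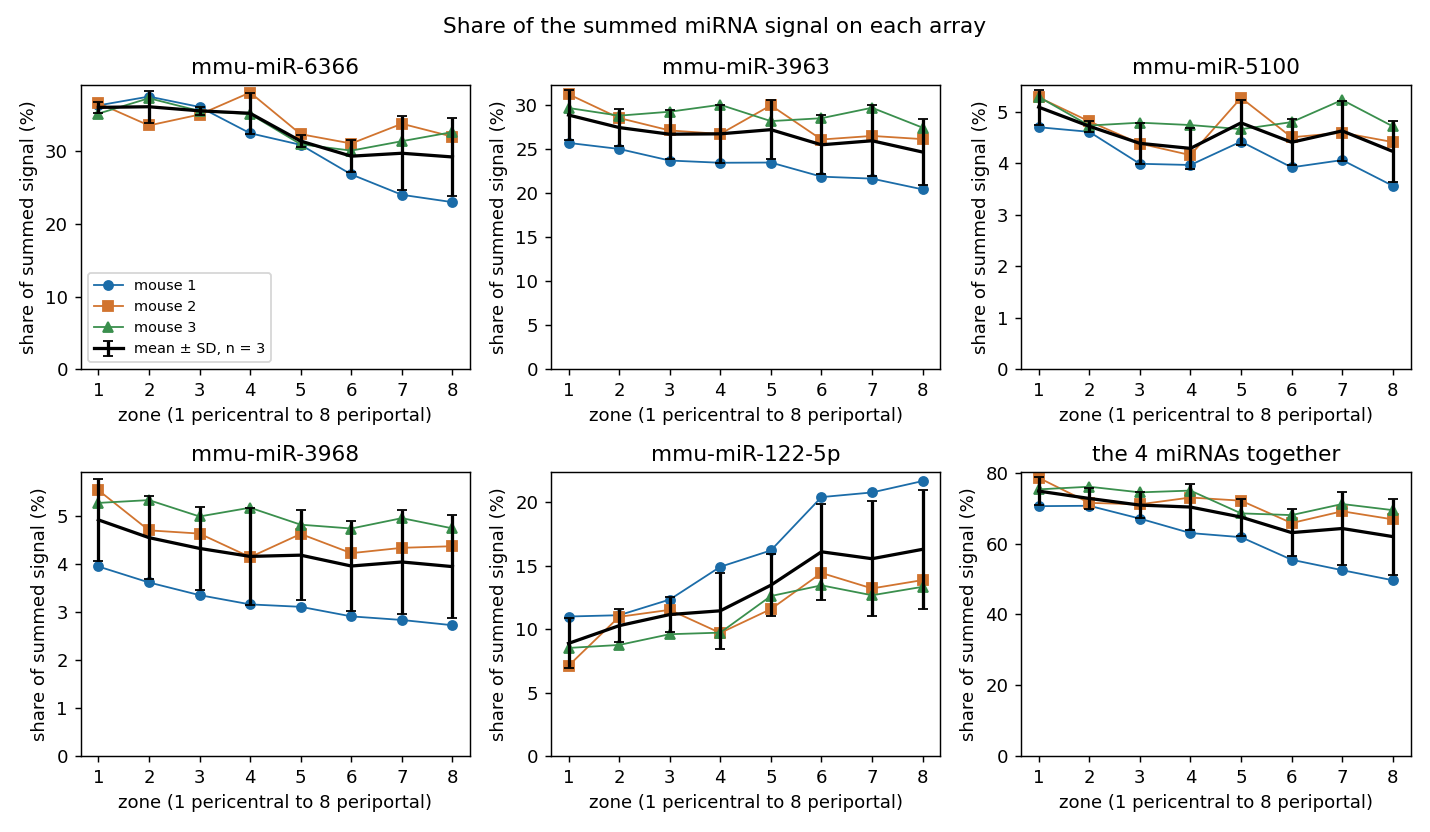
Share of an array's summed miRNA signal (percent, axis from 0) against zone for the 4 miRNAs, for miR-122-5p and for the 4 summed, with 1 coloured line per mouse and the mean ± SD of 3 mice in black. The 4 summed averaged 62.0% in zone 8 against 74.8% in zone 1, while miR-122-5p averaged 16.3% in zone 8 against 8.87% in zone 1.

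Summed over the 4, the share was 49.7% in zone 8 against 70.6% in zone 1 of mouse 1, 66.8% against 78.6% in mouse 2, and 69.4% against 75.3% in mouse 3. The 3 mice averaged 62.0% ± 10.7 (SD) in zone 8 against 74.8% ± 4.02 in zone 1. Shares of an array sum to a fixed total, and miR-122-5p averaged 16.3% ± 4.66 in zone 8 against 8.87% ± 1.96 in zone 1.

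The slope on the zone number asked whether a signal changed from the pericentral to the periportal end. Each array was scaled by a 75th percentile taken over the 198 miRNAs that all arrays detected, and the fitted change is the slope over the 7 steps from zone 1 to zone 8 in log2 units. All 4 changes were negative, and none passed at the threshold of 0.05 in limma over 339 tested miRNAs. They were -0.56 ± 0.21 (SE) for miR-6366 (limma adjusted p = 0.0638), -0.48 ± 0.32 for miR-3968 (0.343), -0.36 ± 0.24 for miR-3963 (0.343) and -0.33 ± 0.23 for miR-5100 (0.365). Over all tested miRNAs 6.49% fell and 10.3% rose, and the median change was -0.10.

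With the mouse as a block, the same changes passed for 3 of the 4. The block removes differences in mean level between animals, not differences in slope. The p-values of this fit measure the scatter of arrays about a slope common to the mice, not the spread of slopes among mice. miR-6366 fell by 0.56 ± 0.15 (limma adjusted p = 0.0069), miR-3968 by 0.48 ± 0.14 (0.0112) and miR-3963 by 0.36 ± 0.13 (0.0354), while miR-5100 had a change of -0.33 ± 0.15 (0.102). In that fit 16.5% of all tested miRNAs fell. The calls rest on mouse 1: without it and with the block, none of the 4 passed, and the changes were -0.23 ± 0.14 for miR-6366 (limma adjusted p = 0.268), -0.24 ± 0.15 for miR-3968 (0.285), -0.15 ± 0.15 for miR-3963 (0.472) and -0.11 ± 0.17 for miR-5100 (0.653), against 5.01% of all tested miRNAs falling. When the row of the slide was added to that fit of all mice, limma called 0 of 339 miRNAs, against 19 higher and 18 lower towards zone 8 at an unadjusted p under 0.05. The changes of the 4 were then -0.45 ± 0.30 for miR-6366, -0.68 ± 0.28 for miR-3968, -0.56 ± 0.26 for miR-3963 and -0.75 ± 0.29 for miR-5100. Without mouse 2 or without mouse 3, with the block, miR-6366, miR-3968 and miR-3963 still passed, with 13.9% and 10.9% of all tested miRNAs falling.

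A joint fit with 1 slope per mouse, which shares its residual spread among the 24 arrays, gave 12 of 12 negative changes (5 of 12 without scaling). The 4 miRNAs share their arrays and scaling and vary together, so the 12 signs are not independent. In mouse 1 all 4 fell in limma, which called 7.67% of the tested miRNAs as falling there: miR-6366 by 1.22 ± 0.19 (adjusted p = 0.00102), miR-3968 by 0.97 ± 0.21 (0.0033), miR-3963 by 0.77 ± 0.20 (0.0139) and miR-5100 by 0.76 ± 0.24 (0.0385). In mouse 2 the changes were -0.17, -0.27, -0.20 and -0.14 for miR-6366, miR-3968, miR-3963 and miR-5100, and none passed, with 13.3% falling overall. In mouse 3 they were -0.29, -0.21, -0.11 and -0.09, and none passed, with 0.885% falling. These p-values measure the scatter of arrays about the 3 lines, pooled over the mice. A test of whether the 3 slopes differ, chosen after the mice were seen to part, was passed by none of the 4 (limma adjusted p of 0.0753 for miR-6366, 0.23 for miR-3968, 0.32 for miR-3963 and 0.445 for miR-5100) and by 0.885% of all tested miRNAs.

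Zones were also fitted within each slide row. Each zone had the same row and column on all 3 slides, so within a row a zone cannot be told apart from its slide column. The changes fitted with the mouse as a block are given on the scale of the full axis. In zones 1 to 4 they were -1.09 ± 0.27 for miR-5100, -1.08 ± 0.29 for miR-3968, -0.76 ± 0.26 for miR-3963 and -0.58 ± 0.26 for miR-6366, with limma adjusted p from 0.115 to 0.374 and 0.295% of all tested miRNAs falling. In zones 5 to 8 they were -0.42 ± 0.46, -0.27 ± 0.39, -0.37 ± 0.41 and -0.33 ± 0.47 in the same order of miRNAs, and limma called 0 of 339 miRNAs, against 21 higher and 22 lower at an unadjusted p under 0.05.

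The ends of the axis were also compared without a line. The scaled signal of miR-6366 was 14667, 29692 and 35518 in zone 8 of mice 1, 2 and 3, against 34626, 34831 and 38319 in zone 1. That of miR-3963 was 13024, 24234 and 29846 in zone 8, against 24510, 29697 and 32311 in zone 1. On this scale zone 8 was below zone 1 in each of the 3 mice, but the groups overlapped.

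For miR-5100 the scaled signal was 2277, 4102 and 5145 in zone 8, against 4493, 5033 and 5775 in zone 1. For miR-3968 it was 1738, 4053 and 5159 in zone 8, against 3766, 5265 and 5742 in zone 1. Here too zone 8 was lower in every mouse and the groups overlapped. In the deposited signals, zone 8 was below zone 1 in mouse 1 alone, for all 4 miRNAs. In mice 2 and 3 it was above zone 1, for miR-6366 at 33466 against 25747 and at 45075 against 35628. The differences of the scaled signals, zone 8 minus zone 1, were -0.53 ± 0.31 log2 units (SE) for miR-6366, -0.44 ± 0.35 for miR-3963, -0.48 ± 0.32 for miR-5100 and -0.55 ± 0.47 for miR-3968. None passed in limma (adjusted p from 0.427 to 0.586), nor with the mouse as a block (0.0742 to 0.117), where 0.59% and 2.06% of all tested miRNAs were lower. The moderated F test over the 8 zones, for differences of any shape, gave an adjusted p of 1 in limma for each of the 4 and called 5.31% of the tested miRNAs.

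The size of the change depended on how the arrays were scaled. The 4 miRNAs hold most of the summed signal, and scaling to that sum turns each value into a share. The changes were then -0.39 ± 0.11 for miR-6366 (limma adjusted p = 0.0164), -0.31 ± 0.20 for miR-3968 (0.359), -0.19 ± 0.12 for miR-3963 (0.373) and -0.16 ± 0.11 for miR-5100 (0.455), with 1.77% of all tested miRNAs falling. Leaving the 4 out of the sum gave -0.97 ± 0.22, -0.89 ± 0.33, -0.77 ± 0.24 and -0.74 ± 0.23, in the same order. All 4 then passed (limma adjusted p of 0.00133, 0.032, 0.015 and 0.0121), 33.9% of all tested miRNAs fell, and the median over all tested moved to -0.43. With miR-122-5p left out of the sum too, miR-6366 alone of the 4 passed (limma adjusted p = 0.00775). The values were then 0.108 for miR-3968, 0.0794 for miR-3963 and 0.0748 for miR-5100, and 60 of 339 miRNAs fell. A factor per array shifts all miRNAs nearly alike, so changes are also given less the median of all tested miRNAs. That of miR-6366 was -0.46 with 75th percentile scaling, -0.43 with the summed signal and -0.54 with the 4 left out of it, and that of miR-5100 was -0.23, -0.20 and -0.30. With 75th percentile scaling and without mouse 1, they were -0.14 for miR-6366 and -0.02 for miR-5100. Among miRNAs detected on all 24 arrays they were -0.37 and -0.14.

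Without scaling the changes were -0.33 ± 0.30, -0.25 ± 0.41, -0.13 ± 0.33 and -0.10 ± 0.31 for miR-6366, miR-3968, miR-3963 and miR-5100, none past the test (limma adjusted p from 0.7 to 0.943), and 0.885% of all tested miRNAs fell. With 1 slope per mouse, 5 of 12 changes were then negative: all 4 in mouse 1, none in mouse 2 and that of miR-6366 in mouse 3. With the mouse as a block and no scaling none of the 4 passed either (limma adjusted p of 0.262 for miR-6366, 0.381 for miR-3968, 0.649 for miR-3963 and 0.739 for miR-5100). Quantile normalization gives every array the same set of values, so the brightest miRNA of each array, always miR-6366, had the same value on all of them and no slope could be fitted. Under it the values of the other 3 followed their ranks alone, so their changes carry no size of signal. miR-3963 had a change of -0.21 ± 0.14, which came from 1 array, zone 8 of mouse 1, where it ranked 3 and not 2. By mouse its changes were -0.64, 0 and 0 in mice 1, 2 and 3. miR-5100 and miR-3968, which trade ranks 4 and 5, had 0.05 ± 0.07 and -0.05 ± 0.07. None passed in limma (adjusted p of 0.374, 0.701 and 0.701), and 8.85% of all tested miRNAs fell. Less the median of all tested miRNAs, these 3 changes were -0.10, 0.17 and 0.06.

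**Figure D3:**
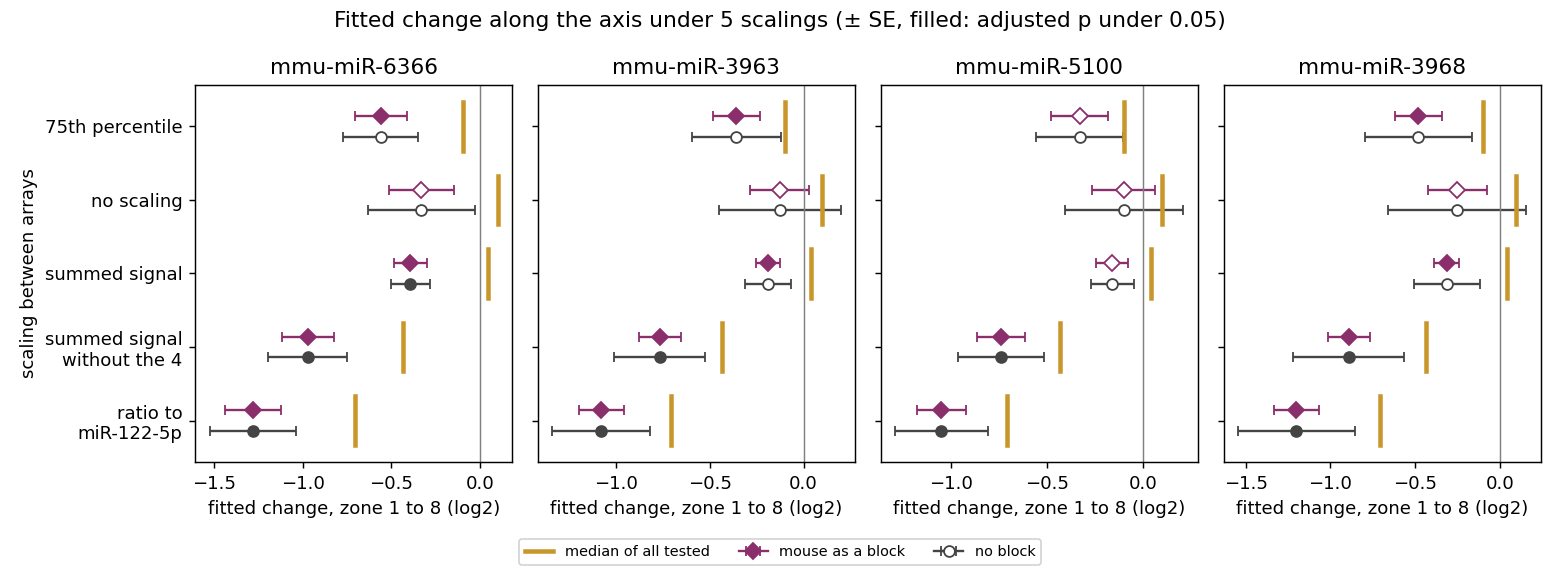
Fitted change from zone 1 to zone 8 (log2 units, ± SE) of the 4 miRNAs under 5 scalings, without a block (circles) and with the mouse as a block (diamonds), filled where the limma adjusted p was under 0.05; gold bars give the median over all tested miRNAs. All points lie below 0, and points and gold bars move together, from a median of 0.10 without scaling to -0.71 for the ratio to miR-122-5p.

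A ratio of 2 miRNAs on an array needs no scaling. Against miR-122-5p the changes were -1.28 ± 0.24 for miR-6366 (limma adjusted p = 0.000104), -1.20 ± 0.34 for miR-3968 (0.00496), -1.08 ± 0.26 for miR-3963 (0.00134) and -1.05 ± 0.24 for miR-5100 (0.000821). In this ratio 48.2% of 338 miRNAs fell, with a median of -0.71, and miR-122-5p itself rose along the axis by 0.72 ± 0.13 with 75th percentile scaling (limma adjusted p = 0.000159). Zone 8 minus zone 1, the log2 ratio of miR-6366 to miR-122-5p was -1.64, -1.16 and -0.75 in mice 1, 2 and 3, and that of miR-3963 by -1.31, -1.22 and -0.76. The direction of the ratio was the same in all 3 mice.

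Among themselves the 4 were closely correlated over the 24 arrays, most closely the 3 that share the AUCCCA run. These correlations are descriptions over arrays that share mice, slides and scaling. Pearson's r of the scaled log2 signals was 0.99 between miR-3963 and miR-3968, 0.98 between miR-3963 and miR-5100 and 0.96 between miR-5100 and miR-3968. It was 0.90 to 0.92 between miR-6366 and each of the others. After each mouse's mean was removed, r was 0.98 for miR-3963 with each of miR-3968 and miR-5100. It was then 0.94 for miR-5100 with miR-3968 and 0.90 for miR-3963 with miR-6366. Over all pairs of the 198 miRNAs detected on every array the median r was 0.01 and the 95th percentile 0.75. The highest was 0.992, above the 0.990 of miR-3963 with miR-3968. With miR-122-5p the sign of r turned with the scaling: it was -0.18 to -0.44 for the 4 on scaled signals and 0.23 to 0.38 on deposited ones.

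The ratio of miR-3963 to miR-5100 varied over the 24 arrays by 1.21-fold in all, while the deposited signals varied by 3.15-fold for miR-3963 and 2.82-fold for miR-5100. The SD of that log2 ratio was 0.07, below the error of either signal on 1 array. The ratio of miR-3963 to miR-3968 varied by 1.41-fold and set mouse 1 apart, while mice 2 and 3 overlapped. From its mean over all arrays it lay at 0.04 to 0.27 log2 units in mouse 1, at -0.17 to 0.03 in mouse 2 and at -0.23 to -0.08 in mouse 3. The lowest array of mouse 1 (0.036) was above the highest of mouse 2 (0.029) by less than the error of either signal on 1 array. On average miR-3968 was lower in mouse 1 by more than miR-3963 was. The ratio of miR-5100 to miR-3968 varied by 1.61-fold. Those of miR-6366 to miR-3963, miR-5100 and miR-3968 varied by 1.44-fold, 1.55-fold and 1.70-fold, so by this measure the 3 that share the run did not all lie closer to each other than to miR-6366. Against miR-6366, with the mouse as a block, the changes along the axis were 0.20 ± 0.10 for miR-3963, 0.23 ± 0.11 for miR-5100 and 0.08 ± 0.10 for miR-3968. None of these passed in limma (adjusted p of 0.115, 0.125 and 0.573), while 27.2% of 338 miRNAs rose relative to miR-6366.

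**Figure D4:**
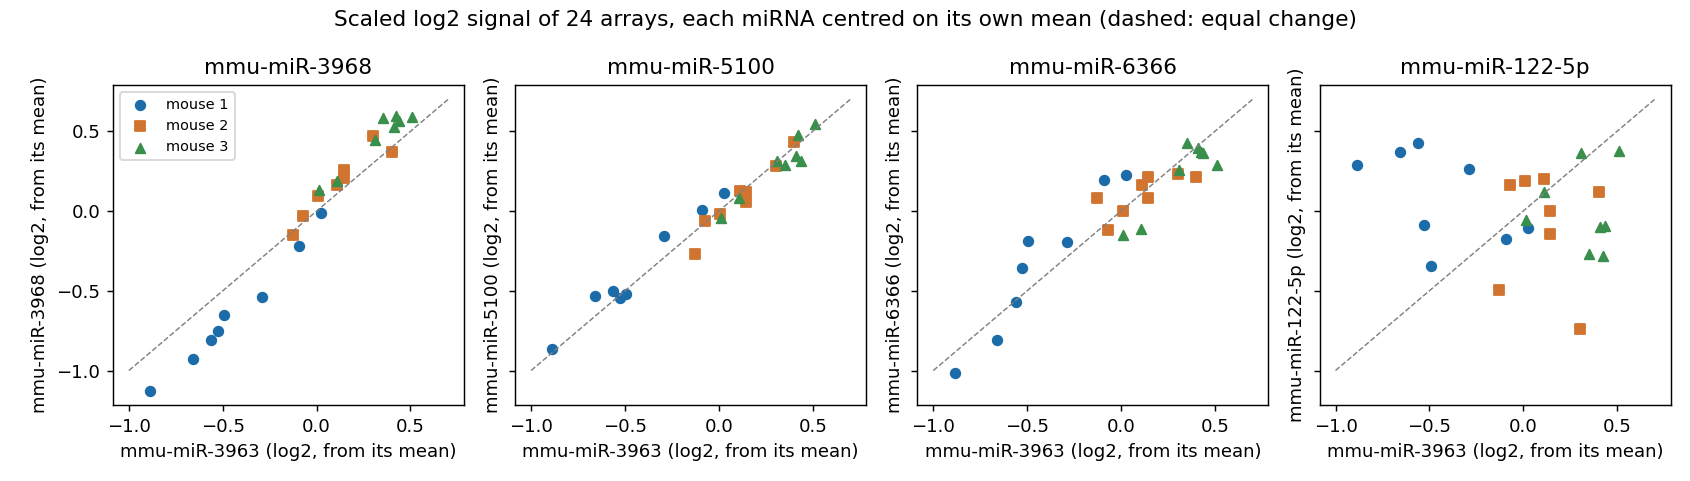
Scaled log2 signals of the 24 arrays, each miRNA as its deviation from its own mean, for miR-3968, miR-5100, miR-6366 and miR-122-5p against miR-3963; colours and shapes mark the mice and the dashed line equal change. Points of miR-5100 lie along the line, those of miR-3968 cross it with mouse 1 below, those of miR-6366 scatter more, and those of miR-122-5p do not follow it.

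The miRNAs most like each of the 4 were found by the same correlation over 24 arrays among 197 candidates. For miR-3963, miR-5100 and miR-3968 the closest 2 were each other. Next in line were miR-6366 for miR-3963 (0.92), miR-652-5p for miR-5100 (0.90) and miR-6412 for miR-3968 (0.93). miR-6366 itself was closest to miR-652-5p (0.98), miR-6402 (0.96) and miR-7671-3p (0.94), which were far dimmer, at 0.0637%, 0.019% and 0.0112% of the summed signal. On shares instead of scaled signals, the r of miR-6366 was 0.84 with miR-652-5p, 0.64 with miR-3963, 0.62 with miR-3968 and 0.51 with miR-5100. On the same shares, r was 0.97 for miR-3963 with miR-3968, 0.90 for miR-3963 with miR-5100 and 0.84 for miR-5100 with miR-3968.

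The other late-registered miRNAs were described by the same slope. Of 936 miRNAs on the array numbered 3000 or above, 144 were tested, and 11 fell, 3 rose and 130 did not pass in the slope without a block, with a median change of -0.20. Without the 4 the median was -0.19, with 11 falling and 3 rising of 140. Of the 195 tested miRNAs with lower numbers 11 fell and 32 rose, with a median of 0.02, against 22 falling and 35 rising of all 339 (median -0.10). With the mouse as a block 31 of the high-numbered fell and 7 rose, while 25 of the lower-numbered fell and 42 rose. The 4 miRNAs ranked 34 (miR-6366), 48 (miR-3968), 90 (miR-3963) and 100 (miR-5100) from the most negative change of 339.

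The label of the cells was set against marker miRNAs. The hepatocyte miRNAs miR-122-5p, miR-192-5p, miR-194-5p and miR-148a-3p were detected on all 24 arrays. Of 16 miRNAs listed for leukocytes, endothelium, red cells, stellate cells and bile ducts, 14 were detected on no array, miR-126a-3p was detected on 16 arrays and miR-200b-3p on 1. Between 248 and 368 of 1881 miRNAs were detected per array.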

How the data were processed

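The authors deposited 1 intensity per miRNA and array on a linear scale, the total gene signal, with its error, extracted with Agilent Feature Extraction according to the submitters' processing notes, which name no version. The other deposited column is a detection call, per the file headers. Undetected miRNAs carry the signal 0.1 with error 1. No scaling between arrays is recorded, and no saturation flag was among the columns used, so whether the scanner compressed the brightest signals was not tested.

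The labels gave zone and mouse. Slide, slide row and slide column were read from the names of the deposited array data, not from the labels. After 21 control sequences were left out, each array was scaled by its 75th percentile among the 198 miRNAs seen on every array, floored at 1.121 and log2-transformed. limma 3.58.1 (lmFit, eBayes) in R 4.3.3 tested the 339 miRNAs present on 6 or more arrays, two-sided, with Benjamini-Hochberg adjustment over all of them. Shares are percent of the summed signal of 1881 miRNAs. The number of arrays limits the precision. The slope fit was tested on simulated data with independent noise and the same slope in all mice. That simulation did not cover slopes that differ between mice, or deviations that the miRNAs of an array share. Figures used matplotlib 3.10.9 in Python 3.11.15.

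Mouse numbers pair the arrays, since all populations with 1 number are from the same animal; deviations from zone means correlated between arrays of a mouse with a median of 0.61 and a lowest value of 0.25. Mature sequences were matched by name for 1608 of 1881 miRNAs and 286 of 339 tested. The miRNAs and lists were chosen with earlier results of these data known. Named miRNAs were the 4, miR-122-5p, the 3 next in mean share, the 3 of highest correlation with each, and detected holders of the longest shared run; undetected holders of AUCCCA were named after their values were seen. Alternatives were other scalings, mouse as a block, other filters and floors, trended and robust eBayes, slide row, single rows, and leaving out each mouse or an end zone.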

Additional observations from a re-analysis of the deposited data

How the results depend on the processing

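In the slope on the zone number, the changes of miR-6366, miR-3963 and miR-3968 were negative under all alternatives that gave a value. These were 26 for miR-6366 and 27 for each of the others, and 11, 8 and 8 of them were past the threshold. Many could not alter the sign. A block alone, the other detection filters, the lower floor and trended eBayes leave the changes of the 4 as they were. The percentile over all miRNAs repeats the values without scaling. The change of miR-5100 was negative in 26 of 27 and past the threshold in 4. It was 0.0527 under quantile normalization, where values of the 4 follow rank alone and miR-6366 gave no value. Against 22 miRNAs lower and 35 higher towards zone 8 (limma), 3 were lower without scaling or with the percentile over all miRNAs, which was equal on all arrays, 6 with the summed signal, 115 without the 4 in the sum, 60 without miR-122-5p too, 10 with the median, 13 without zone 8 and 163 in the ratio to miR-122-5p, where 18 were higher. miR-6366 had -0.39 with the summed signal, -0.77 without the 4 and miR-122-5p in it, and -0.56 with an adjusted p of 0.0438 among miRNAs on all 24 arrays, and passed in each. Without the 4 in the sum all passed, at -0.97 (miR-6366), -0.77 (miR-3963), -0.74 (miR-5100) and -0.89 (miR-3968), as in the ratio to miR-122-5p, at -1.28, -1.08, -1.05 and -1.20.

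With the mouse as a block, 56 miRNAs were lower, and miR-6366 (-0.56), miR-3963 (-0.36) and miR-3968 (-0.48) passed. Blocked and without scaling, 6 were lower and none of the 4 passed, at -0.33 (miR-6366), -0.13 (miR-3963), -0.10 (miR-5100) and -0.25 (miR-3968). Blocked, 143 were lower without the 4 in the sum and 186 in the ratio to miR-122-5p, where 18 were higher; all 4 passed in these last 2 fits, with the changes of the unblocked fits. The blocked fit with the summed signal called 61 higher and 19 lower. It gave -0.39 for miR-6366, -0.19 for miR-3963 and -0.31 for miR-3968, all past the threshold. miR-5100 had -0.16 there and did not pass (limma adjusted p = 0.172). Slide row beside the block left 0 and 0, zones 1 to 4 alone 6 higher and 1 lower, and zones 5 to 8 alone 0 and 0. Blocked scalings, blocked fits without a mouse, and slopes per mouse were chosen after seeing the data.

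Leaving out each mouse in turn gave 9 to 25 miRNAs lower, and 17, 47 and 37 with the block without mice 1, 2 and 3. The changes then ranged from -0.76 to -0.23 for miR-6366, from -0.48 to -0.15 for miR-3963, from -0.45 to -0.11 for miR-5100 and from -0.62 to -0.24 for miR-3968, the values nearest 0 all being those without mouse 1. With the block and without mouse 2, miR-6366, miR-3963 and miR-3968 passed at -0.76, -0.44 and -0.59, and without mouse 3 at -0.70, -0.48 and -0.62. In the joint fit with 1 slope per mouse, the changes in mouse 1 were -1.22 (miR-6366), -0.77 (miR-3963), -0.76 (miR-5100) and -0.97 (miR-3968). All were past the threshold, with 7.67% of the tested miRNAs falling in that mouse.

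Between zones 8 and 1, 2 were lower and 16 higher. No miRNA was lower in limma without scaling or with the summed signal (0, against 1 at an unadjusted p under 0.05 in each), 36 without the 4 in the sum, 16 without miR-122-5p too, 1 with the median, 100 in the ratio to miR-122-5p and 7 with the block, where 26 were higher; 9 were higher among miRNAs on all arrays. In the ratio the 4 differed by -1.18 (miR-6366), -1.10 (miR-3963), -1.14 (miR-5100) and -1.20 (miR-3968), and all but miR-3968 passed. Without each mouse 0 to 1 were lower (at an unadjusted p under 0.05, 15 without mouse 1 and 10 without mouse 3).

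The F test called 18 miRNAs, against 9 without scaling, 47 without the 4 in the sum, 82 in the ratio to miR-122-5p, 31 with the block and 10 to 12 without each mouse. None of the 4 passed it in 63 tests, the lowest adjusted p in limma being 0.0606. The cause of these shifts was not tested. The dimmest of the 4 lay far above background, so detection does not limit the values of the 4 themselves. The counts over all tested miRNAs do move with floor and filter. Against 22 lower in the slope, 18 were lower with a floor 4 times lower and 29 among miRNAs on all 24 arrays. Saturation was not tested, and 3 mice on 1 slide each limit all values and counts.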
